A study of Homo sapiens with 4 samples.

Results

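LBP, the gene of lipopolysaccharide-binding protein, was examined together with 9 genes whose products handle or sense bacterial endotoxin, namely BPI, CD14, LY96, TLR1, TLR2, TLR3, TLR4, TLR6 and MYD88. LBP was selected on its measured log2 difference between the clones, the highest of all genes on these arrays, and the others were chosen by their place in the same pathway. The choice therefore rests on the comparison of L243P with wild type itself, and for these 10 genes that comparison is described without a test. All 10 were found by name among 19555 named genes, and each had a single probe set. RNA came from U87MG, an established human malignant glioma line, in a form carrying membrane alanyl-aminopeptidase (APN, also CD13, the product of ANPEP), a surface enzyme that trims peptides. One clone, named for wild-type APN and EGFP, gave 2 samples, and another clone, named for L243P APN and EGFP and called inactive in the labels, gave 2 more. The replicates are described as coming from separate experiments, and growth was comparable. Each form of APN is represented by 1 clone, so clone and genotype cannot be told apart.

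Lipopolysaccharide is the endotoxin of the outer membrane of Gram-negative bacteria. LBP, an acute-phase protein made mainly by the liver, takes single molecules out of it and passes them to CD14. CD14 loads them onto MD-2, the product of LY96, which sits on the receptor TLR4 and makes it pair. BPI, a relative of LBP from neutrophil granules, binds the same endotoxin and neutralises it. TLR2 forms pairs with TLR1 or TLR6 and recognises bacterial lipopeptides, while TLR3 recognises double-stranded RNA in endosomes. MYD88 is the adaptor that carries the signal of all of these receptors except TLR3, which uses the adaptor TRIF.

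Affymetrix whole-transcript arrays were used, and the deposited values are normalized intensities on a linear scale in whole numbers, so at a low intensity a step of 1 is a sizeable part of the value. The median of all probe sets lay between 46 and 50 on the 4 arrays. Detection calls were not used here, and a weak signal cannot be separated from background. Correlations of log2 intensity were 0.993 and 0.995 within the groups and between 0.990 and 0.991 across them. Values per group are mean ± SD with n = 2, and a difference is log2 of L243P over wild type. ANPEP was bright in all samples, at 8447 and 9103 with wild type and 6439 and 7122 with L243P, and its probe set does not separate the forms. Of 11 measured genes from a list for this glioma line, 8 were brighter than the array median on all 4 arrays, among them VIM (vimentin) at 6134 to 8297 and NES (nestin) at 62 to 112. The neural genes SOX2 (31 to 44), OLIG2 (39 to 48) and S100B (17 to 20) were below it on all 4.

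Promoter sequences (250 bases before to 50 after the start site, RefSeq, GRCh38.p14) were matched for 6 of the 10 genes, and LBP, BPI, LY96 and TLR1 are not among them. Those of TLR3, the receptor with the widest difference, of TLR4, the endotoxin receptor, and of MYD88, the adaptor with level values, are shown to set the windows beside the values that follow. They lie at chr4:186068906-186069205 (plus strand), chr9:117704153-117704452 (plus strand) and chr3:38138411-38138710 (plus strand). Capitals mark matches to an interferon regulatory factor element (GAAA, any 2 bases, GAAA) or a STAT element (TTC, any 3 bases, GAA). Both were searched on both strands, with elements of NF-kB (GGGA, any base, TTTCC) and AP-1 (TGA, any base, TCA). Other letters searched were those of C/EBP (TT, any 2 bases, GCAA), the GC box (GGGCGG), the TATA box (TATAAA) and ETS (CCGGAAGT). Matches to these are not marked.
TLR3: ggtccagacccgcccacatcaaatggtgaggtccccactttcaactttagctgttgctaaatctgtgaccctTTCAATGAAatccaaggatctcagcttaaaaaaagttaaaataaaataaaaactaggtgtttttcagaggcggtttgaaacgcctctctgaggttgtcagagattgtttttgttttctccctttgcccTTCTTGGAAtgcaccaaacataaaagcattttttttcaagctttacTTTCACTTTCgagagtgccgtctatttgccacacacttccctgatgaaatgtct
TLR4: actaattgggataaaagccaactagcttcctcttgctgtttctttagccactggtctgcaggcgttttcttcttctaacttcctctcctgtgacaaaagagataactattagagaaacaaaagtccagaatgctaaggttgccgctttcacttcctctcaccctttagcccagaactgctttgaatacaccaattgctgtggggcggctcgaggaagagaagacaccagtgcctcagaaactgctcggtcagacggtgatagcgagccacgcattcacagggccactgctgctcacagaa
MYD88: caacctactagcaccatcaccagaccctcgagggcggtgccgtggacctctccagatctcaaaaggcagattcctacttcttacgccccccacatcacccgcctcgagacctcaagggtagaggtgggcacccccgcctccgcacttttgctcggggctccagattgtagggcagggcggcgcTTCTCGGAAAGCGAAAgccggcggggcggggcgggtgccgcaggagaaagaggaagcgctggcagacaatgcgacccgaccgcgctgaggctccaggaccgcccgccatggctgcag
The TLR3 window held 1 interferon regulatory factor match, starting 4 bases before the start site, and 2 STAT matches. The MYD88 window held 1 of each, and these overlap in a single run of capitals. No interferon regulatory factor, STAT, NF-kB or AP-1 match was found in the TLR4 window or in those of TLR2 and TLR6. CD14 held 1 STAT and 1 AP-1 match. TLR3 also held 1 C/EBP match, and GC boxes numbered 1 in TLR3, 1 in TLR4, 2 in TLR2 and 5 in MYD88. Over 35116 promoters of this length, the interferon regulatory factor letters occurred in 3.57%, the STAT letters in 7.66%, the AP-1 letters in 7.71% and the NF-kB letters in 0.558%. The C/EBP letters occurred in 10.5% and the GC box in 45.0%. A match says only that these letters are present.

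LBP stood apart from the other 9 genes. The wild-type arrays read 20 and 19 and the L243P arrays 199 and 153, so the groups were far from overlapping. The means were 19.5 ± 0.707 and 176.0 ± 32.5, a ratio of 9.03 and a log2 difference of 3.16. Between single arrays the log2 difference ran from 2.94 to 3.39. On both wild-type arrays 30.3% of the probe sets were as dim as LBP or dimmer, and this share was 78.8% and 73.9% with L243P. Its wild-type level thus lies where signal and background cannot be separated, so the ratio is one of intensities and not of transcript amounts. With an offset of 16 added to each intensity, the log2 difference was 2.42. It ranked 1 of all genes from the highest, which is the value that chose it. The authors' deposited table of all probe sets gives a signed fold of 8.9 for it, and an estimated proportion of false positives (pfp) of 0.0 for higher in L243P. Over all probe sets, 0.949% met the authors' threshold of 0.15, with 0.440% higher and 0.509% lower in L243P.

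**Figure D1:**
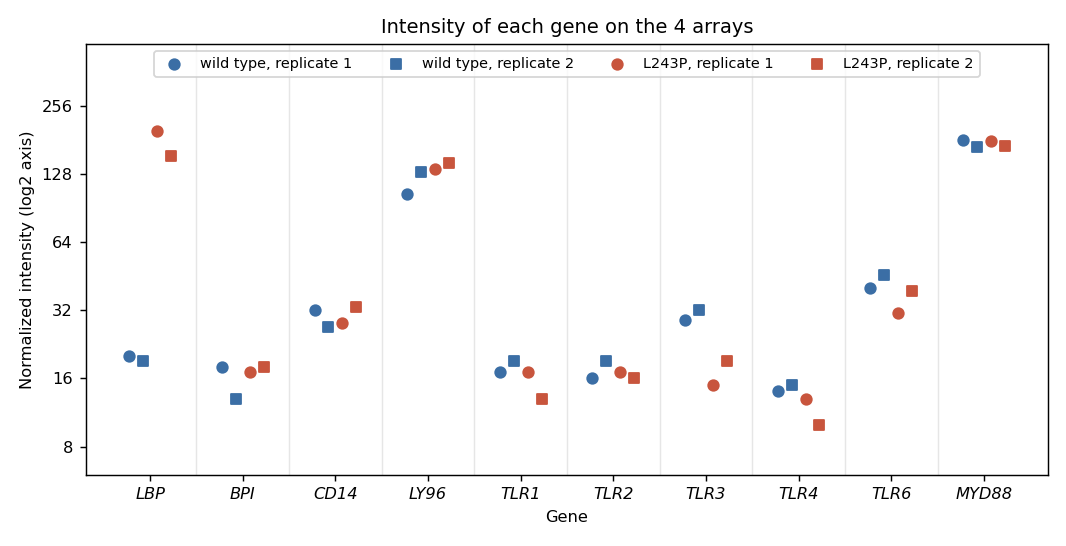
Normalized intensity (log2 axis) of the 10 genes on each array, with blue for wild type, red for L243P, circles for replicate 1 and squares for replicate 2. LBP is at 19 and 20 in wild type and at 153 and 199 in L243P, TLR3 is lower in both L243P samples, and the values of MYD88 and CD14 interleave. Levels of different genes come from different probes and are not to be compared.

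BPI lies next to LBP on chromosome 20, with 0 measured genes between them, and did not follow it. Its intensity was 18 and 13 with wild type and 17 and 18 with L243P, so the groups overlapped (log2 difference 0.19). Over the 10 nearest measured genes on each side of LBP, BPI among them, the median log2 difference was 0.07, and 0 of these 20 passed the test across all genes (limma, adjusted p under 0.05), against 0.967% of all genes. Of them, 8 were higher and 4 lower in L243P without overlap of the groups, against 17.0% and 20.9% of all genes. The widest difference among the neighbours of LBP was that of TGM2 (transglutaminase 2), at 307 and 204 with wild type and 407 and 393 with L243P (log2 difference 0.68, adjusted p = 0.235, limma). KIAA1755 and RPRD1B on the same side had log2 differences of -0.22 and 0.09, and the small nucleolar RNA genes SNORA71B, SNORA71A, SNORA71C and SNORA71D on the other side had 0.19, 0.09, 0.00 and 0.27. These 4 are near-identical copies, so their signals may be shared.

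The genes that receive endotoxin from LBP had small differences beside it. CD14 read 32 and 27 on the wild-type arrays and 28 and 33 on the L243P arrays (29.5 ± 3.54 and 30.5 ± 3.54, log2 difference 0.05), and the groups overlapped. It was below the median of all probe sets on each array. LY96, which encodes the MD-2 subunit, had intensities of 104 and 130 (wild type) and 134 and 143 (L243P), so the lowest L243P value exceeded the highest wild-type value by a narrow margin. Its means were 117.0 ± 18.4 and 138.5 ± 6.36 (log2 difference 0.25), and the difference between single arrays ran from 0.04 to 0.46. TLR4 measured 14 and 15 in wild type against 13 and 10 in L243P (log2 difference -0.35). Its groups were 1 unit apart, and between 15.4% and 25.0% of the probe sets were as dim or dimmer.

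MYD88 had almost the same mean in both clones. It read 180 and 168 on the wild-type arrays and 179 and 170 on the L243P arrays, which gives 174.0 ± 8.49 and 174.5 ± 6.36 and a log2 difference of 0.00. The differences between single arrays ran from -0.08 to 0.09. LY96 and MYD88 were the 2 members above the array median in all 4 samples, and 7 were below it in all 4.

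TLR3 had the widest difference among the receptors. It had intensities of 29 and 32 (wild type) and 15 and 19 (L243P), so the lowest wild-type value was well above the highest L243P value. The means were 30.5 ± 2.12 and 17.0 ± 2.83, a ratio of wild type to L243P of 1.79 and a log2 difference of -0.85. Differences between single arrays ran from -1.09 to -0.61. Over all genes, 0.956% differed by as much in either direction. Between 25.7% and 41.6% of the probe sets were as dim as TLR3 or dimmer, where signal and background cannot be separated. With an offset of 16 added to each intensity, the log2 difference of TLR3 was -0.50. In the authors' deposited table its signed fold is -1.8 with a pfp of 0.124 for lower in L243P, inside that threshold, and LBP and TLR3 are the 2 members among the 224 genes of their summary.

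The receptors of bacterial lipopeptides were dim and close between the clones. TLR2, the shared partner, measured 16 and 19 in wild type against 17 and 16 in L243P (log2 difference -0.08), and the groups overlapped. TLR1 read 17 and 19 on the wild-type arrays and 17 and 13 on the L243P arrays (log2 difference -0.27), with 1 value shared by both groups. TLR6 had intensities of 40 and 46 (wild type) and 31 and 39 (L243P) (43.0 ± 4.24 and 35.0 ± 5.66, log2 difference -0.30), so the groups were 1 unit apart. TLR1 and TLR6 are close relatives, and part of the signal of either may belong to the other.

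Of the 10 genes, 2 were higher (LBP and LY96) and 3 lower (TLR3, TLR4 and TLR6) in L243P without overlap, and 5 overlapped. Over all genes, 38.0% showed no overlap. The median log2 difference of the 10 was -0.04, against -0.02 over all genes. All 5 Toll-like receptors among the 10 had log2 differences below 0, though that of TLR2 was 0.04 without wild-type replicate 2. Outside the 10, TLR7, TLR8 and TLR10 were above 0 (0.10, 0.08 and 0.06), and TLR5 and TLR9 below it (-0.26 and -0.19).

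The receptors TLR1, TLR2, TLR3 and TLR6 lie on chromosome 4, and the genes around TLR1 and TLR6 were lower in L243P as a block. Over the 10 nearest measured genes on each side of TLR6, the median log2 difference was -0.54. Of these, 15 were lower in L243P without overlap and 0 higher, against 20.9% and 17.0% of all genes. TLR1 and TLR6 are direct neighbours and belong to each other's set. In this block FAM114A1 fell from 404.0 ± 42.4 to 226.0 ± 0.0 (adjusted p = 0.0407, limma) and TMEM156 from 50.5 ± 0.707 to 23.0 ± 2.83 (adjusted p = 0.0447, limma). UBE2K, the gene with the lowest log2 difference of all (-4.86), lies beyond TLR6 with 10 measured genes between. TLR10, the other member of this receptor cluster, was at 12 and 13 with wild type and 13 in both L243P samples. With the median of the neighbours subtracted, the log2 difference of TLR6 became 0.24 and that of TLR1 0.34, both above 0. These values are not a rise in intensity, and TLR1 was dim, at 13 to 19. Among other dim genes around it, PTTG2, KLB, PGCKA1 and TLR10 had log2 differences of 0.10, -0.07, -0.14 and 0.06, and ARAP2 had -0.75.

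The neighbours of TLR3 and TLR2, at other places on the chromosome, had smaller differences. Around TLR3 the median was -0.13, with 7 of 20 lower and 2 higher without overlap, and TLR3 minus this median was -0.72. Around TLR2 it was -0.10, with 6 of 20 lower and 1 higher. Over the 688 measured genes of chromosome 4 the median log2 difference was -0.14, the lowest of the 23 chromosomes compared, and 43.6% were lower without overlap, against 21.3% of the genes with a known chromosome. The median of the 512 genes of chromosome 20, which holds LBP and BPI, was 0.00, rank 21 of the 23 from the lowest. Without overlap, 23.0% of them were higher and 17.4% lower, against 17.2% and 21.3% of the genes with a known chromosome. Whether the values of the chromosome 4 receptors share a cause with their neighbours was not tested.

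**Figure D2:**
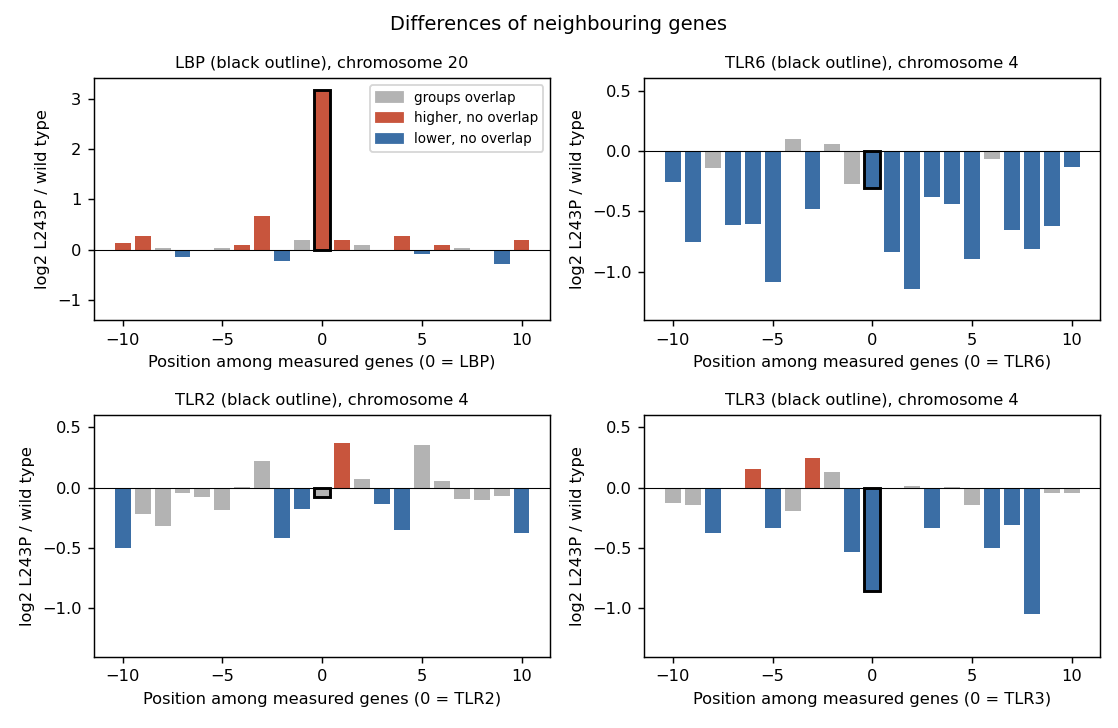
Log2 of L243P over wild type for the 10 nearest measured genes on each side of LBP, TLR6, TLR2 and TLR3, in the order of the genes along the chromosome, with the named gene outlined in black and colours for groups that overlap or not. LBP stands alone at 3.16 among neighbours with a median of 0.07, whereas TLR6, at -0.30, sits in a block with a median of -0.54. The LBP panel has its own vertical scale.

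The rest of the pathway was read from gene lists, tested with limma in 1 fit over all rows. Over all genes, 0.430% were called higher and 0.537% lower at an adjusted p under 0.05. Of 161 measured genes in 8 pathway lists, 2 were called, both lower in L243P, namely CASP4 and CXCL8. CASP4, the caspase that binds endotoxin inside the cell and opens the non-canonical inflammasome route, measured 189 and 196 in wild type against 106 and 85 in L243P. Both L243P samples were far below the wild-type ones, and it fell from 192.5 ± 4.95 to 95.5 ± 14.8 (log2 difference -1.02, SE 0.14, adjusted p = 0.0458, limma). Its call was lost under quantile normalization, where CXCL8 was the single pathway gene called. The calls of both genes were lost with limma's default prior, with the replicate number as a block and with any 1 array left out, where 0 genes of the whole table were called. CASP5, its close relative, read 9 in both wild-type samples and 7 and 8 in L243P.

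Among relatives of LBP, 17 of the 18 listed genes of the family and of endotoxin handling were not called. The share called over all genes was 0.967%, and the list had a median of -0.09. PLTP, the phospholipid transfer protein of the same fold, read 1017 and 908 on the wild-type arrays and 1252 and 1149 on the L243P arrays (log2 difference 0.32, adjusted p = 0.241, limma). SCARB1, a lipoprotein receptor that also takes up endotoxin, had intensities of 220 and 218 (wild type) and 251 and 255 (L243P) (log2 difference 0.21). CETP and the BPIF genes had log2 differences between -0.33 and 0.13. PLTP and most BPIF genes are on chromosome 20 as well, and none of them was called.

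**Figure D3:**
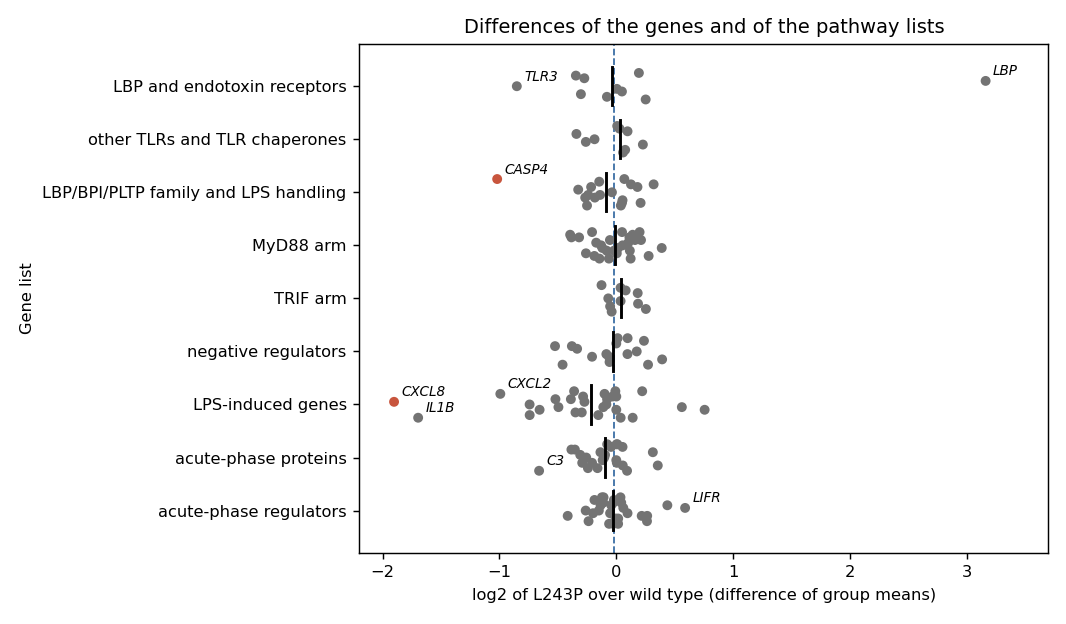
Log2 of L243P over wild type for each measured gene of the 10 described here (top row, untested) and of 8 pathway lists, with a black bar at each list's median, a dashed line at the median of all genes (-0.02), and red for genes called by limma. LBP lies at 3.16, far from every other point, and CXCL8 and CASP4 are the called genes, both lower.

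In the signalling arms below the receptors no gene was called, against 0.967% of all genes. In the MyD88 arm, 28 were measured, with a median of -0.01 and values between -0.40 and 0.39, and 5 were higher and 6 lower without overlap, near the 17.0% and 20.9% of all genes. MAP2K3, a kinase upstream of p38, measured 343 and 342 in wild type against 265 and 256 in L243P (adjusted p = 0.129, limma). IRAK2, a kinase of the receptor complex, read 135 and 144 on the wild-type arrays and 113 and 101 on the L243P arrays. MAPK9 (JNK2) had intensities of 452 and 510 (wild type) and 684 and 578 (L243P). The TRIF arm, which serves TLR3 and TLR4, had a median of 0.04 over 10 genes, with 3 higher and 0 lower without overlap, against 17.0% and 20.9% of all genes. The 3, none of them called, were the kinases TBK1 (log2 difference 0.25) and IKBKE (0.19) and the transcription factor IRF3 (0.18).

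Other receptors and regulators also had no call, against 0.967% of all genes. TLR5, TLR7, TLR8, TLR9 and TLR10 had log2 differences between -0.26 and 0.10 and overlapping groups. The chaperone LRRC59 measured 2251 and 2370 in wild type against 1834 and 1812 in L243P (adjusted p = 0.129, limma). Among 16 negative regulators (median -0.03), 4 were higher and 5 lower without overlap, against 17.0% and 20.9% of all genes. TNFAIP3 (A20, a ubiquitin-editing enzyme that dampens NF-kB) read 177 and 160 on the wild-type arrays and 116 and 118 on the L243P arrays (adjusted p = 0.123, limma). Its partner TNIP1 had intensities of 295 and 223 (wild type) and 189 and 184 (L243P), and PELI3 was at 65 and 63 against 83 and 85.

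Among genes that endotoxin typically induces, CXCL8 was the single one called. Of 28 measured, 1 was called lower and 0 higher, against 0.537% and 0.430% of all genes, and 27 were not called. The median of the list was -0.21. Without overlap, 13 were lower and 3 higher, against 20.9% and 17.0% of all genes. CXCL8 (interleukin 8) measured 143 and 100 in wild type against 31 and 33 in L243P, and it fell by 1.90 on the log2 scale (SE 0.19, adjusted p = 0.025, limma), a call lost in the same settings as that of CASP4 apart from quantile normalization. IL1B (interleukin 1 beta) read 310 and 168 on the wild-type arrays and 74 and 67 on the L243P arrays (adjusted p = 0.0761, limma). Its wild-type samples differed widely, yet the dimmer one was still brighter than either L243P sample. CXCL2 had intensities of 54 and 44 (wild type) and 24 and 25 (L243P) (adjusted p = 0.0668, limma). In the other direction, CCL2 measured 31 and 26 in wild type against 50 and 46 in L243P (adjusted p = 0.12, limma). CXCL8, CXCL1, CXCL2, CXCL3 and CXCL10 are on chromosome 4. Without these 5, 10 of 23 were lower and 3 higher without overlap, with a median of -0.11. CXCL8, CXCL2 and IL1B are in the authors' deposited summary too, with signed folds of -3.8, -2.02 and -3.39.

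LBP is an acute-phase gene, and no gene of the acute-phase list was called. In this list, 2 genes were brighter than the array median on all 4 arrays. Of 24 measured, 0 were called by limma, against 0.967% of all genes, and the median was -0.10. Without overlap, 1 was higher (APCS) and 5 lower, against 17.0% and 20.9% of all genes, so the lower count is at the background. The inducible amyloid gene SAA1 read 9 and 10 in wild type and 7 and 9 in L243P. Its relative SAA2 read 21 and 26 against 27 and 19. CRP, the C-reactive protein gene, was between 13 and 15 on all arrays. C3, the central complement protein, read 511 and 283 on the wild-type arrays and 256 and 226 on the L243P arrays (adjusted p = 0.416, limma). CFB (complement factor B) was at 73 and 68 against 62 and 47, and ORM1 (orosomucoid) at 15 and 17 against 12 and 13.

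Of the 28 regulators of the acute-phase response, 0 were called by limma, against 0.967% of all genes, and the median was -0.03. Without overlap, 5 were higher and 5 lower, against 17.0% and 20.9% of all genes. STAT3, which carries the interleukin 6 signal, had intensities of 382 and 418 (wild type) and 402 and 369 (L243P). CEBPB and CEBPD, factors of the liver response, had log2 differences of 0.22 and -0.13. LIFR, a receptor of the interleukin 6 family, measured 136 and 155 in wild type against 224 and 213 in L243P (log2 difference 0.59, adjusted p = 0.101, limma). PIAS3, an inhibitor of STAT3, was at 176 and 180 with wild type and 241 in both L243P samples (adjusted p = 0.122, limma). IL1R1, an interleukin 1 receptor, was at 145 and 181 against 126 and 117 (adjusted p = 0.318, limma). At an unadjusted p under 0.05, 30 of the 161 pathway genes passed in limma, against 2642 of 19555 genes.

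Markers of hepatocytes, which make LBP, and of blood and vessel cells that carry its partners were examined beside it. Of 12 hepatocyte genes, 0 were called by limma, against 0.967% of all genes. Among them 11 overlapped and 1 was lower without overlap, against 20.9% of all genes lower. This 1 was APOB, at 20 and 19 with wild type and 16 and 17 with L243P. The summed intensity of the 12 was 297 and 292 with wild type and 270 and 318 with L243P. ALB (albumin) was between 9 and 11 on all arrays, and APOA1 (47 to 67) was the 1 gene brighter than the array median on all 4. Of 12 monocyte and microglia genes, 0 were called, with 1 higher and 2 lower without overlap (17.0% and 20.9% over all genes). Their sum was 2306 and 2220 with wild type and 2724 and 2913 with L243P, most of it from CD68, a lysosomal protein that is not specific to these cells (1901.5 ± 43.1 and 2487.5 ± 115.0, adjusted p = 0.108, limma). PTPRC, the leukocyte marker CD45, was at 8 or 9 on all arrays, and CX3CR1 and AIF1 were between 10 and 17. Of these 12 markers, 3 were brighter than the array median on all arrays, namely CD68, TYROBP and SPI1. TYROBP was at 122 and 106 with wild type and 98 and 106 with L243P. SPI1 was at 79 and 60 against 62 and 64. Neutrophil markers (10 measured) summed to 315 and 312 with wild type and 257 and 302 with L243P. CEACAM8 was at 25 and 31 against 19 and 22, and CSF3R at 36 and 29 against 24 in both. CXCR2 went the other way, at 13 in both wild-type samples against 15 and 14. ELANE, at 130 and 133 against 105 and 132, was the 1 neutrophil marker brighter than the array median on all 4. Endothelial markers (9 measured) summed to 328 and 277 and to 274 and 295. KDR was at 37 and 33 against 21 and 25, ERG at 31 and 25 against 22 and 24, and TEK at 18 and 15 against 23 and 24. CLDN5 (66 to 76) and ROBO4 (51 to 71) were the 2 endothelial markers brighter than the array median on all 4. Of 11 genes of the glioma line, FN1 (fibronectin) rose from 2073.0 ± 46.7 to 3958.0 ± 67.9 (adjusted p = 0.0112, limma). NES was at 62 and 74 against 104 and 112, and S100A6 at 1091 and 1055 against 1239 and 1387. In this list 3 were higher and 1 (TNC) lower without overlap, against 17.0% and 20.9% of all genes. Without overlap, 1 neutrophil marker was higher and 2 lower, and 1 endothelial marker was higher and 3 lower, with 0 called in both lists. The part of CD68, FN1 or the other markers in the result for LBP was not tested.

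The profile of LBP over the 4 arrays was compared with that of every other gene, by the Euclidean distance between log2 intensities centred on each gene's mean. The 5 nearest were PLXDC1 (distance 0.691), PCSK2 (0.702), CHI3L1 (1.24), TUSC3 (1.39) and MRGPRF (1.65). PLXDC1, a plexin-domain membrane protein, read 52 and 51 on the wild-type arrays and 313 and 263 on the L243P arrays. PCSK2, a prohormone convertase, was at 64 and 48 against 360 and 274. CHI3L1, a secreted chitinase-like protein, was at 1161 and 1081 against 4186 and 4636. In LBP, PLXDC1, PCSK2 and MRGPRF, replicate 1 was the brighter L243P sample. With 4 arrays in 2 groups, nearness reflects mainly the size of the difference between the clones. Of these 5 genes, PCSK2 is on chromosome 20. The same distance, applied to TLR3 after its values were seen, gave AKAP3 (0.082) and HMGN3 (0.092) among the nearest.

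**Figure D4:**
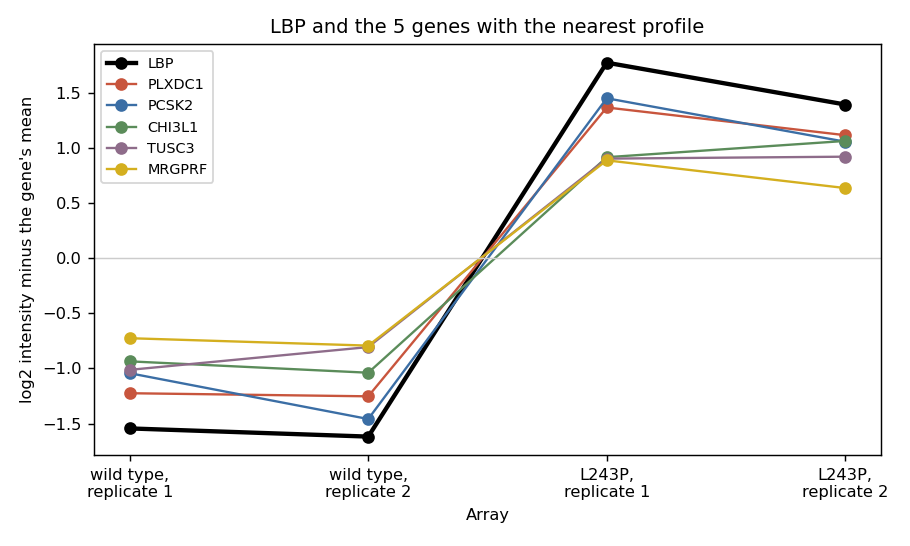
Log2 intensity on the 4 arrays, centred on each gene's mean, for LBP (black) and the 5 genes with the nearest profile. All 6 are low in both wild-type and high in both L243P samples, and LBP has the widest step.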

How the data were processed

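Normalized intensities of 29085 probe sets were read for 2 wild-type and 2 L243P samples. Per the deposited description, the authors background corrected, quantile normalized and summarised the arrays by RMA in Rosetta Resolver, and deposited linear intensities rounded to whole numbers. No software version or build is given in the sources used here. RMA is also named in the submitters' processing notes. The deposited p-values and the signed fold and pfp columns (scores here, per the file headers and from their range) come from the authors' comparison and from RankProdIt. The pfp columns name the groups Cond1 and Cond2. Their direction was read from the sign of the fold among the probe sets selected. The series matrix held the same values in all 116340 cells.

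Of 19607 usable names, 15645 were current RefSeq symbols (GRCh38.p14), 2556 were older ones and 1406 stayed as given. That assembly was used for names, the order of genes and promoter sequences. The brightest probe set stood for a gene, and 27533 rows, 7978 of them unnamed, were tested on log2 intensity with no further normalization or filter. limma 3.58.1 (R 4.3.3, statmod 1.5.0) was fitted with its trend and robust options, with Benjamini-Hochberg adjustment over all rows. The fit was tested on simulated rounded arrays whose spread was drawn from bright rows alone. That test cannot show how the fit behaves if dim rows vary otherwise. The 10 genes, the lists and this fit were chosen with earlier results of these data known. Nothing shows that the replicates are separate beyond the statement that experiments were independent, so p-values measure the spread between samples of a clone. The number of arrays, 4, limits the precision.

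Named genes were the 10, each called list member, the 3 members of each list with the widest difference without overlap, the 5 nearest profiles to LBP and its 4 nearest measured genes on each side. Genes named beyond these were chosen after their values were seen. HSP90B1, TAB1, TRAF3, ITIH4, PECAM1 and GFAP were listed but not analysed here. Alternatives were the prior, an offset, a filter, other scaling, the mean of probe sets, a replicate block and leaving out each array.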

Additional observations from a re-analysis of the deposited data

How the results depend on the processing

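LBP kept a log2 difference between 2.42 and 3.35 over 10 alternatives, the lowest with an offset of 16 (log2 of intensity + 16), which also moved TLR3 to -0.50. TLR3 stayed below 0 in all 10. The other members moved by less than the spread of their replicates, except with the median of 10 neighbours on each side subtracted, an alternative added after the data were seen, where TLR6 turned from -0.30 to 0.24, TLR1 to 0.34 and MYD88 to 0.08. Some of these outcomes were fixed in advance. Each member had a single probe set and the series matrix held the same values, so these alternatives could change nothing. With 2 samples per group, leaving out 1 array cannot move a difference by more than the pooled spread of the replicates. Nor can it turn the sign where the groups do not overlap, as for LBP and TLR3. Without wild-type replicate 2, the signs of BPI (-0.04), CD14 (-0.07), TLR2 (0.04) and MYD88 (-0.05) turned. CD14 also turned without L243P replicate 2 (-0.07), MYD88 without L243P replicate 1 (-0.03) and under quantile normalization (-0.02), and TLR2 with the neighbours subtracted (0.02). Without wild-type replicate 2 the median of the neighbours of LBP became -0.02. Over all 19555 genes, 189 were called (84 higher, 105 lower). This number became 505 (282 and 223) with each array centred on its median and 440 (257 and 183) without the dimmer 50% of the rows, so the direction of the majority turned. The count was 0 with the default prior, with 2785 genes at an unadjusted p under 0.05. With the replicate block the count was 0 and 0 pathway genes were called, with 1637 at an unadjusted p under 0.05. The deviations of same-numbered samples from their group means had a weak negative correlation (-0.16), and the block with crossed numbers, also added afterwards, called 0 as well. The labels do not say that a number marks a shared experiment. Against 2 pathway genes called, there were 9 with median centring, 6 without the dimmer rows, 1 with quantile normalization, 0 with the default prior and 4 in the authors' selection (CASP4, CXCL2, CXCL8 and IL1B). Median centring and the filter both added IL1B, LIFR, NFKBIA and NFKBIZ, and median centring also CCL2, CXCL2 and SOD2, of which LIFR and CCL2 were higher in L243P. The causes of these changes were not tested. Leaving out any array left 0 genes and 0 pathway genes called, with 2308 to 3487 genes at an unadjusted p under 0.05 and an arm of 1 sample assumed to vary like the other. Weak signals were limited by rounding and by background that is not separable.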
